A study of Mus musculus with 46 samples.

Results

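Small leucine-rich proteoglycans are secreted matrix proteins built on leucine-rich repeats, and 10 of their genes (Dcn, Bgn, Aspn, Lum, Fmod, Prelp, Omd, Epyc, Ogn and Chad), taken by symbol from the 29871 genes of the table, were followed through 46 single cells of the mouse cochlea. The proteins bind collagen fibrils, set how fibrils thicken and pack, and hold growth factors in the matrix. Several carry chondroitin or dermatan sulfate chains, as decorin (Dcn) and biglycan (Bgn) do, and others carry keratan sulfate, as lumican (Lum), fibromodulin (Fmod) and osteomodulin (Omd) do. Asporin (Aspn) has the same fold without the usual chain. By structure Dcn, Bgn and Aspn form class I, Lum, Fmod, Prelp and Omd class II, Epyc and Ogn class III, and Chad, without a chain, class IV.

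All 46 cells carried the labelled genotype Dio2creERt2:Ai6 on the C57BL/6 strain and came from cochleae at postnatal day 10, so there was no control group. The mice were heterozygous for the Dio2 allele. In this design a Cre recombinase that acts on tamoxifen is made where Dio2, the gene of the type 2 deiodinase, is active, and the Ai6 reporter then marks the cell and its descendants green, whether or not Dio2 is still expressed. Cells were freed with papain and single fluorescent cells were drawn up by pipette. Each cell gave 2522853 to 10350249 reads in the listed genes. The labels name no animal, so the cells together count as 1 sample. Groups of cells are therefore described without a test, and intervals cover counting error only. Tamoxifen dosing is not given in the labels.

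The cells were divided by 3 marker genes. The Ibsp-high class (12 cells) had at least 1000 CPM (read counts scaled to 1000000 reads per cell) of bone sialoprotein mRNA, the Otos-high class (9 cells) at least 1000 CPM of otospiralin, a product of cochlear fibrocytes, and the C1qb-high class (4 cells) at least 500 CPM of a complement subunit made by macrophages. The rest were the 21 cells under all 3 limits, and 0 cells passed 2 limits. The limits fell in wide gaps. The lowest values inside and the highest outside were 7618 and 107 CPM for Ibsp, 1213 and 112 CPM for Otos, and 3048 and 148 CPM for C1qb. The summed level of 9 osteoblast markers, Ibsp among them, was 11613 to 171465 CPM in Ibsp-high cells, at most 375 CPM in Otos-high cells, at most 197 CPM in C1qb-high cells and at most 1982 CPM in the rest. The sum of 8 fibrocyte markers, Otos among them, was 1372 to 35668 CPM in Ibsp-high cells, 32101 to 169081 CPM in Otos-high cells, 127 to 445 CPM in C1qb-high cells and 132 to 117832 CPM in the rest, so the rest hold cells of more than 1 kind. The sum of 8 macrophage markers, C1qb among them, was 17335 to 28991 CPM in C1qb-high cells and at most 476 CPM in any other cell. Each sum holds the gene that defined the class, so its height there is partly fixed by the rule. Counted by gene, 9 of 9 osteoblast markers had a median of 100 CPM or more in Ibsp-high cells and 0 in the other classes. For the 8 macrophage markers this was 8 in C1qb-high cells and 0 in the other classes. For the 8 fibrocyte markers it was 6 in Otos-high, 2 in Ibsp-high and 0 in C1qb-high cells and 3 in the rest. Schwann cell markers, myelin genes among them, summed to at most 3700 CPM in Ibsp-high cells, 1382 CPM in Otos-high cells, 10584 CPM in C1qb-high cells and 5736 CPM in the rest. Ibsp-high cells were numbered 1 to 12, Otos-high cells lay between numbers 23 and 32, and C1qb-high cells were 43 to 46, so class and any order of collection cannot be told apart. CPM is a share of a cell's reads, and the amount of RNA per cell was not measured.

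A gene was called on in a cell at 100 CPM or more. The 10 genes were on or nearly silent. Of 460 values, 176 were at 100 CPM or more, 265 were under 10 CPM and 19 lay between. For the 7 members on in at least 5 cells, the median share of values between 10 and 100 CPM was 4.35%, against 15.2% over all 6316 genes on in at least 5 cells. Dcn was on in 36 of 46 cells (78.3%, exact 95% interval 63.6% to 89.1%), Bgn in 31 (67.4%, 52.0% to 80.5%), Omd in 28 (60.9%, 45.4% to 74.9%), Ogn in 26 (56.5%, 41.1% to 71.1%) and Lum in 22 (47.8%, 32.9% to 63.1%). Fmod was on in 12 cells and Chad in 11. Epyc and Prelp were on in 4 cells each and Aspn in 2. A limit of 1000 CPM gave lower counts, such as 23 cells for Dcn and 7 for Bgn.

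**Figure D1:**
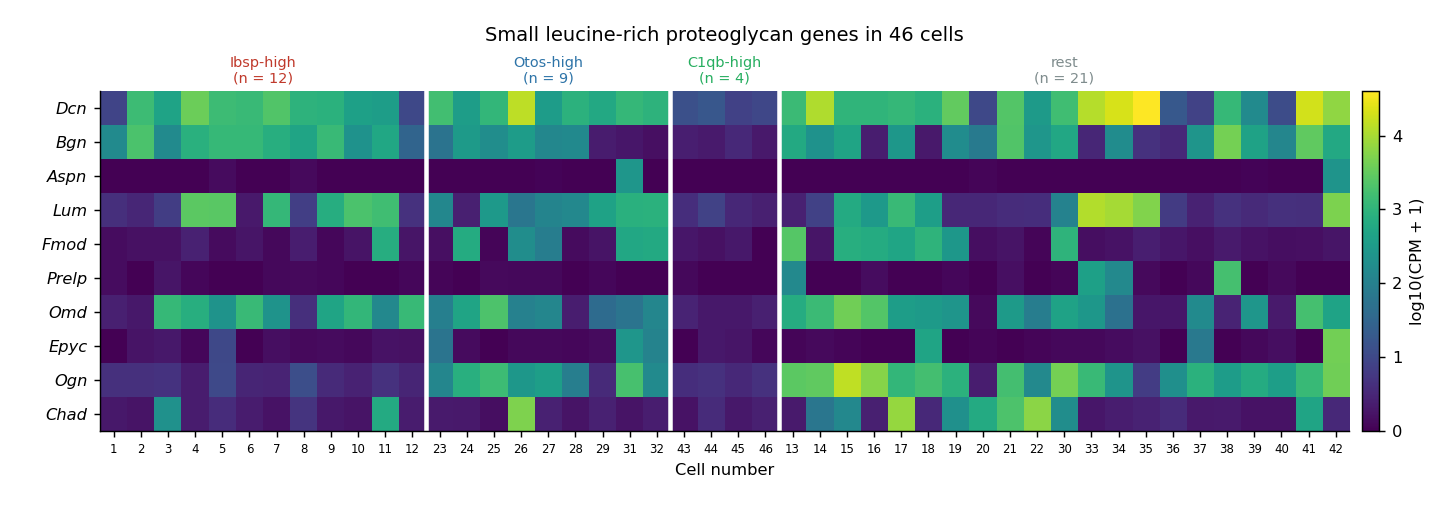
Level of each of the 10 genes (rows) in each of the 46 cells (columns, by cell number), as log10(CPM + 1) on the colour scale, with cells grouped by marker class. Ogn was dark in all 12 Ibsp-high cells and on in 19 of the 21 cells of the rest, and all 10 genes stayed at or below 16.7 CPM in the C1qb-high cells.

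The genes were combined in 30 different ways over the 46 cells. The median cell had 4 members on, and the highest number was 7. The commonest combination was Dcn, Bgn, Lum and Omd, found in 5 cells, all of them Ibsp-high. A set of 7, Dcn, Bgn, Lum, Fmod, Omd, Ogn and Chad, was found in 3 cells, all in the rest. Ibsp-high cells showed 7 combinations, Otos-high cells 8 and the rest 17. At 5 or more members there were 1 of 12 Ibsp-high, 6 of 9 Otos-high and 12 of 21 remaining cells. At the other end, cell 20 of the rest had Chad only (653 CPM), cell 36 Ogn only (196 CPM), and among Ibsp-high cells cell 1 had Bgn only (160 CPM) and cell 12 Omd only (1244 CPM). The summed CPM of the 10 genes took a median of 0.357% of reads in Ibsp-high cells, 0.266% in Otos-high cells, 0.00207% in C1qb-high cells and 0.808% in the rest, with a highest value of 4.40% in cell 35 of the rest.

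Between genes, levels were compared per kilobase of the exons of each gene in GENCODE M21, which run from 1.68 kb for Chad to 6.10 kb for Bgn. On this scale the leading member differed between classes. Ogn led in 9 of the 21 cells of the rest and in 3 of 9 Otos-high cells, but in none of the Ibsp-high cells, where Lum led in 6 of 12, Omd in 3, Bgn in 2 and Dcn in 1. In the rest Chad and Dcn led in 4 cells each, Lum in 3 and Bgn in 1. The length pools the exons of all transcripts of a gene (5.84 kb for Dcn, 2.45 kb for Lum) and can exceed that of the mRNA present, so the ranking depends on it. Of the 6 Ibsp-high cells led by Lum, Dcn had the higher CPM in cells 4 (3670 against 2778), 7 (2204 against 1155) and 9 (874 against 726). Lum had the higher CPM in cells 5, 10 and 11.

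**Figure D2:**
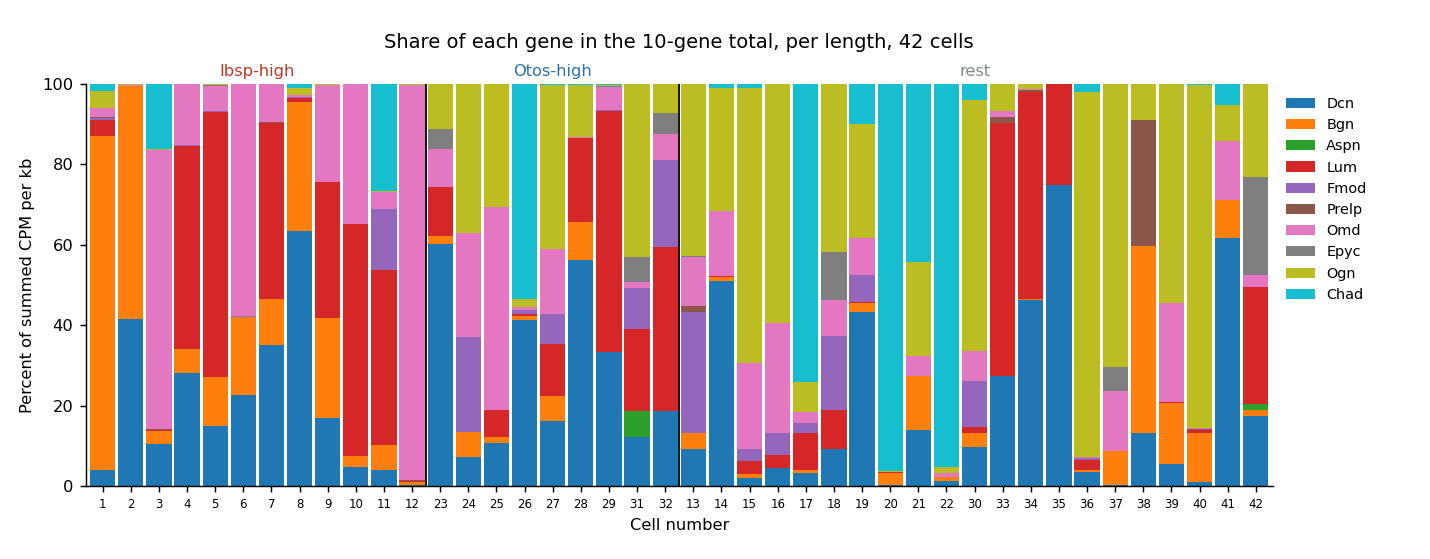
Share of each gene in the summed CPM per kilobase of the 10 genes, as stacked bars for 42 cells by cell number (C1qb-high cells, with no member on, are not drawn). Ogn takes the largest share in 9 of 21 cells of the rest and in no Ibsp-high cell, where Lum leads in 6 of 12. Shares depend on the pooled exon length of each gene.

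Ogn encodes osteoglycin, also called mimecan, which was first isolated from bone, and it was the member that differed most between classes. It ranged from 1.21 to 11.6 CPM (median 2.92) in the 12 Ibsp-high cells, from 2.53 to 1835 CPM (median 267) in the 9 Otos-high cells, and from 1.29 to 14302 CPM (median 1113) in the rest. In the C1qb-high cells it was at 3.03, 3.49, 2.42 and 3.46 CPM. Ibsp-high cells lay near the level of the C1qb-high cells, and overlapped the rest only through cells 20 and 35, at 1.29 and 5.58 CPM. Ogn was on in 0 of 12 Ibsp-high cells (exact 95% interval 0% to 26.5%), 7 of 9 Otos-high cells and 19 of 21 cells of the rest (90.5%, 69.6% to 98.8%). The mean log2(CPM + 1) was 2.07 ± 0.76 (SD, n = 12) in Ibsp-high cells, 7.81 ± 2.71 (SD, n = 9) in Otos-high cells and 9.44 ± 3.01 (SD, n = 21) in the rest. The difference of -7.37 between Ibsp-high cells and the rest was the lowest of all 11444 genes tested, followed by Igfbp2 at -7.19. Only 5 genes (0.0437% of those tested) were on in no Ibsp-high cell and in at least 75% of the rest. They were Ogn, Clu, Igfbp2, Lbp and Il11ra1, named by a rule set after the values of Ogn were seen. In the same way 42 genes (0.367%), Ogn among them, were on in no Ibsp-high cell and in at least 75% of the Otos-high cells. Chondrocyte marker sums had medians of 9344 CPM in Ibsp-high cells and 8104 CPM in the rest, and fibrocyte marker sums 18201 and 6899 CPM. Such sums follow the most abundant genes, and counts by gene ran otherwise. Of 6 tested chondrocyte markers, 2 were higher by 2 log2 units in Ibsp-high cells than in the rest and 3 lower. Of 7 tested fibrocyte markers, 0 were higher and 4 lower. Over all genes 6.3% were higher and 4.58% lower. The part of these markers in the difference of Ogn was not tested.

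Omd, the gene of osteomodulin (osteoadherin), a keratan sulfate proteoglycan of mineralized matrix, is the neighbour of Ogn on chromosome 13 and did not share this pattern. It ranged from 0.976 to 1297 CPM (median 354) in Ibsp-high cells, from 1.36 to 2035 CPM (median 104) in Otos-high cells, and from 0.323 to 3950 CPM (median 272) in the rest. The C1qb-high cells had 1.86, 0.969, 1.01 and 1.51 CPM. The ranges of the 3 larger classes overlapped almost wholly. Omd was on in 9 of 12 Ibsp-high, 5 of 9 Otos-high and 14 of 21 remaining cells, and its mean log2(CPM + 1) differed by 0.31 between Ibsp-high cells and the rest and by -0.27 between Otos-high cells and the rest, both far under the pooled SDs over cells of 3.68 and 3.43. Outside the Ibsp-high class, all 19 cells with Omd on also had Ogn on, and 7 had Ogn on without Omd. In the Ibsp-high class 9 cells had Omd on without Ogn. Of the 488 genes on in 17 to 21 of these 34 other cells, 7 (1.43%) were likewise on only where Ogn was. These genes were matched to Omd by the number of cells on, not by class. A gene on in any C1qb-high cell, where Ogn was off, could not nest in this way. The pair of Omd and Ogn was singled out after its values were seen.

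Both genes lie in a run of 4 genes of leucine-rich repeat proteins on chromosome 13, in the order Ecm2, Aspn, Omd and Ogn, all on the plus strand with gaps of 11.7, 14.9 and 15.4 kb (GRCm38). Ogn spans chr13:49608015-49624501, Omd chr13:49582462-49592612 and Aspn chr13:49544443-49567565. In Ibsp-high cells Omd was the only gene of the run that was on, in 9 of 12 cells, with Ecm2, Aspn and Ogn on in 0. In Otos-high cells Ecm2 was on in 2, Aspn in 1, Omd in 5 and Ogn in 7 of 9. In the rest Ecm2 was on in 11 (median 127 CPM), Aspn in 1, Omd in 14 and Ogn in 19 of 21. Ecm2 reached 76.9 CPM in Ibsp-high cells. Aspn, whose product binds collagen and transforming growth factor beta, was on only in the Otos-high cell 31 at 260 CPM and in cell 42 of the rest at 239 CPM, and 39 cells had no read of it. Cenpp overlaps Aspn, Omd and Ogn on the other strand. It was at 100 CPM or more in 1 cell, in which Ogn and Omd were off, so all cells with Ogn or Omd on had Cenpp under 100 CPM.

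The 250 bases before the RefSeq start of the 3 members of this run are shown because neighbouring genes differed in the same cells. The windows are chr13:49544193-49544442 for Aspn, chr13:49582212-49582461 for Omd and chr13:49607765-49608014 for Ogn, from RefSeq on GRCm38.p6, plus strand, 5′ to 3′. Capitals mark TATAAA, the core of the TATA box, and TGTGGT, a core bound by RUNX factors, on either strand.
Aspn: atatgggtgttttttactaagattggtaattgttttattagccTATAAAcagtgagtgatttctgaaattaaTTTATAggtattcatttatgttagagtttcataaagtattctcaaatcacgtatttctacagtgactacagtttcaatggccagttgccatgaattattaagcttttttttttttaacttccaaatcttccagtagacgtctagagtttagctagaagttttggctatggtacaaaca
Omd: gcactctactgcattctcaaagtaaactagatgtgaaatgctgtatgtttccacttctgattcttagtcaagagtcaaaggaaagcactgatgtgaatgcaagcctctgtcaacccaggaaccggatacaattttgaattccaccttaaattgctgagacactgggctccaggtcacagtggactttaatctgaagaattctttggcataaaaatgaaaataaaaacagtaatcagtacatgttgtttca
Ogn: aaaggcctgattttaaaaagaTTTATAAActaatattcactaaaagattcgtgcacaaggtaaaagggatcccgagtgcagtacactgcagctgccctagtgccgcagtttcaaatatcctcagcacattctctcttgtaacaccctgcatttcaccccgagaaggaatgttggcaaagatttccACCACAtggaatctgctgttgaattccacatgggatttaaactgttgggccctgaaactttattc
The letters TGTGGT occur once, on the minus strand, at positions -65 to -60 before the start of Ogn, and not in the windows of Omd and Aspn. The match overlaps the E-box core named next. TGTGGT occurs in 14.05% of all 32851 windows of this length. TATAAA occurs at -207 and, on the minus strand, at -178 before Aspn, and as 2 overlapping matches at -229 and -227 before Ogn, 1 on each strand. TATAAA was found in 12.4% of windows. TGANTCA, the AP-1 core, was in none of the 3 windows and in 6.75% of all, and the E-box core CANNTG, not marked, was before Ogn 3 times (at -162, -63 and -39), before Aspn 1 time and not before Omd, against 66.2% of all windows. Positions count back from the RefSeq start, which for Ogn lies upstream of the first GENCODE transcript. A match of letters is not a bound site.

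**Figure D3:**
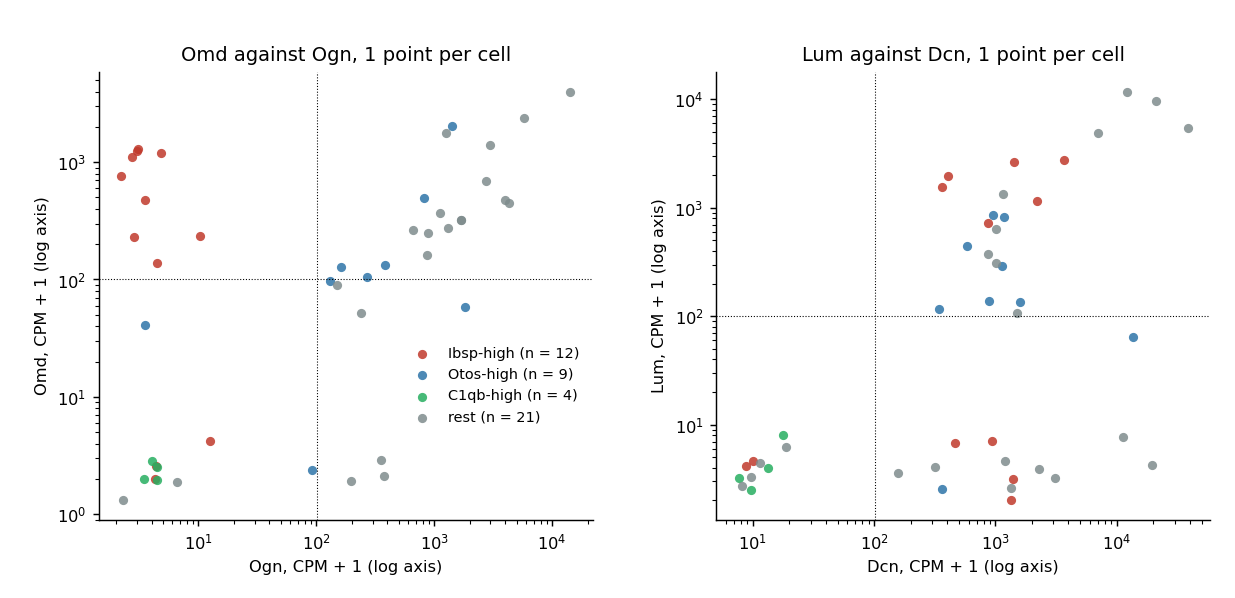
Omd against Ogn (left) and Lum against Dcn (right), 1 point per cell on log axes of CPM + 1, coloured by marker class, with dotted lines at 100 CPM. The 9 Ibsp-high cells with Omd on lie at the left edge for Ogn, and no cell has Lum on with Dcn off.

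Dcn, whose product binds fibrillar collagen and transforming growth factor beta, was the member on in most cells. It ranged from 7.73 to 3670 CPM (median 906) in Ibsp-high cells, from 344 to 13653 CPM (median 951) in Otos-high cells and from 7.21 to 38531 CPM (median 1207) in the rest. The C1qb-high cells had 12.3, 16.7, 6.67 and 8.64 CPM. All 9 Otos-high cells had Dcn on, as did 10 of 12 Ibsp-high and 17 of 21 remaining cells, and the medians of the 3 classes differed far less than the cells within each. The highest value outside the rest was that of the Otos-high cell 26, at 13653 CPM, and 3 cells of the rest were above it (35, 34 and 41). Dcn spans chr10:97479500-97518163 and has Lum 47.3 kb downstream on the same strand, at chr10:97565501-97572703.

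Lum, whose product keeps collagen fibrils of cornea and skin thin and ordered, was on in 22 cells, and in all 22 Dcn was on as well. In 14 cells Dcn was on without Lum, and in 10 both were off. Among the 503 genes on in 20 to 24 cells, 2 (0.398%) were on only in cells with Dcn on. These genes too were matched by the number of cells on, not by class, and Dcn was off in every C1qb-high cell. The pair of Lum and Dcn too was singled out after its values were seen. Lum split the Ibsp-high cells and the rest into separate sets. In Ibsp-high cells 6 lay between 726 and 2778 CPM and the other 6 at or under 6.13 CPM, and in the rest 9 lay between 106 and 11670 CPM and the others at or under 6.72 CPM. In Otos-high cells 7 of 9 had Lum on, at 116 to 863 CPM, 1 had 63.7 CPM and 1 had 1.56 CPM. The C1qb-high cells had 3.03, 6.97, 2.22 and 1.51 CPM. Mean log2(CPM + 1) differed by 0.73 between Ibsp-high cells and the rest and by 1.55 between Otos-high cells and the rest, both under the pooled SDs of 4.58 and 4.12. Neither value was stable. As differences of medians they were 3.54 and 4.48, and without the 12 cells with the fewest reads they were -0.32 and 2.66, so the first changed direction and the second passed 2 log2 units. Of the 12 cells left out, 5 were Ibsp-high, 1 was Otos-high, 2 were C1qb-high and 4 were of the rest. Further along the same stretch of chromosome 10 lies Kera, the gene of keratocan, which is listed at 0 in every cell, and then Epyc.

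Bgn, on the X chromosome at chrX:73483601-73495936, encodes biglycan, the bone-rich relative of decorin. It ranged from 29.8 to 2021 CPM (median 656) in Ibsp-high cells, from 0.542 to 354 CPM (median 135) in Otos-high cells and from 1.02 to 4398 CPM (median 246) in the rest. The C1qb-high cells had 1.40, 1.16, 2.42 and 1.08 CPM. Bgn was on in 11 of 12 Ibsp-high cells, 5 of 9 Otos-high cells and 15 of 21 cells of the rest. Its mean log2(CPM + 1) was 8.87 ± 1.74 (SD, n = 12) in Ibsp-high cells and 5.25 ± 3.34 (SD, n = 9) in Otos-high cells, a difference of 3.63 against a pooled SD of 2.54. Higher by 2 or more in that comparison were 9.94% of all genes, and the ranges overlapped between 29.8 and 354 CPM. Against the rest, the Ibsp-high cells differed by 1.83 and the Otos-high cells by -1.80. Without the 12 cells with the fewest reads these were 0.79 and -3.05.

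Fmod, whose product binds collagen at a site shared with lumican, was on in 1 of 12 Ibsp-high cells (743 CPM in cell 11), 4 of 9 Otos-high cells (182 to 668 CPM) and 7 of 21 cells of the rest (276 to 2471 CPM). Outside these it was at or under 1.62 CPM, apart from 88.1 CPM in the Otos-high cell 27. All 12 cells with Fmod on had Dcn on, 11 had Omd on and 11 had Ogn on. Over all 46 cells Dcn, Omd and Ogn were on in 36, 28 and 26, and other genes were not counted for these overlaps. The gene lies on chromosome 1 at chr1:134037254-134048280, 107 kb from Prelp on the opposite strand. Prelp, the gene of prolargin, which anchors basement membrane to collagen, was on in 4 cells, all in the rest, at 146, 417, 143 and 1754 CPM in cells 13, 33, 34 and 38. Of these, only cell 13 had Fmod on. Prelp was at or under 0.798 CPM in every other cell.

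Chad encodes chondroadherin, a cartilage protein that binds collagen and an integrin. It was on in 2 of 12 Ibsp-high cells (208 and 660 CPM in cells 3 and 11), 1 of 9 Otos-high cells (5081 CPM in cell 26) and 8 of 21 cells of the rest (137 to 7402 CPM, with cells 17 and 22 highest). In the C1qb-high cells it was at 0.698, 2.71, 1.01 and 1.51 CPM. The overlapping gene Acsf2 on the other strand was on in 4 cells, up to 151 CPM, all 4 of them cells with Chad on. Epyc encodes epiphycan, a proteoglycan of growth cartilage also known from the cochlea. It was on in the Otos-high cells 31 (264 CPM) and 32 (114 CPM) and in cells 18 (493 CPM) and 42 (4254 CPM) of the rest. Cells 23 and 37 had 58.8 and 72.1 CPM, and the remaining cells at most 9.02 CPM. All 4 cells with Epyc on also had Dcn, Lum and Ogn on, and the 2 cells with Aspn on were among them. Over all 46 cells Dcn, Lum and Ogn were on in 36, 22 and 26, and here too other genes were not counted. The antisense gene Gm10754 overlaps Epyc and was on in 2 cells, both with Epyc on.

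**Figure D4:**
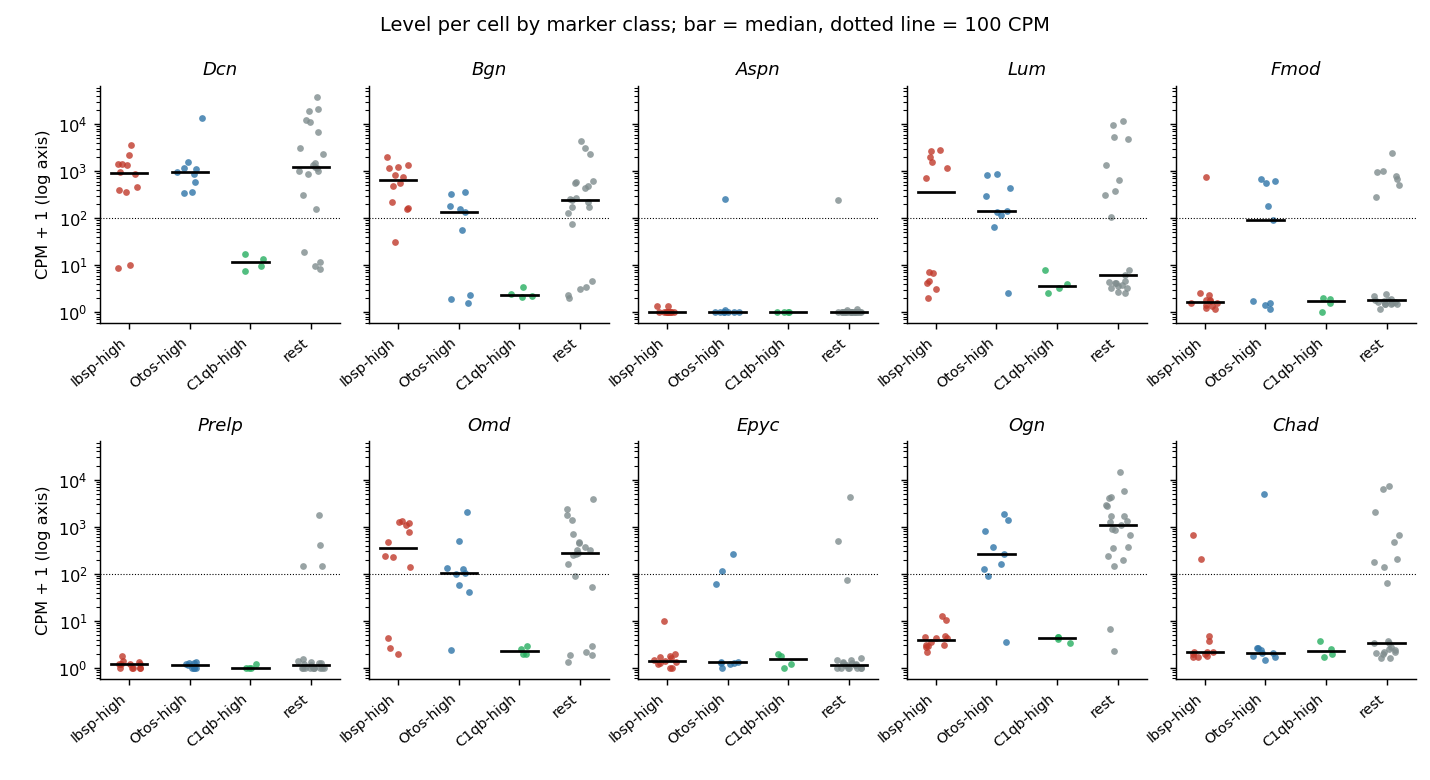
CPM + 1 of each gene on log axes, 1 point per cell, by marker class, with the median as a bar and a dotted line at 100 CPM. The points of most genes form a set above and a set well below the line, and the Ibsp-high points of Ogn all lie at or below 11.6 CPM.

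Of the 10 genes, 8 reached 1 CPM in at least 5 cells and entered the comparison over all genes, and Aspn and Prelp did not. Between Ibsp-high cells and the rest, 0 of the 8 were higher by 2 log2 units or more, against 6.3% of all genes, and 3 were lower, against 4.58%. The 3 were Ogn (-7.37), Chad (-2.25) and Fmod (-2.24). With a pseudocount of 10 Chad and Fmod came to -1.63 and -1.56, and as medians to -0.62 and -0.11, under the limit, while Ogn came to -5.86 and -8.16. Chad was also under it, at -1.99, without cells 22 and 42. The count of 0 higher became 1 under both other sets of class limits, where Bgn was at 2.16 and 2.11, and with medians, where Lum was at 3.54. The median over the 8 was -0.89, and over all genes 0.09. Between Otos-high cells and the rest, 0 were higher by 2 (5.74% of all genes) and 1 was lower (4.2%), which was Chad at -2.38, or -1.54 with a pseudocount of 10 and -0.68 as medians. As medians Fmod (5.63) and Lum (4.48) were higher by 2 and Ogn (-2.06) lower. The Fmod median of the Otos-high cells was the value of cell 27, at 88.1 CPM. Without the 12 cells with the fewest reads Lum (2.66) was higher and Bgn (-3.05) and Ogn (-2.07) were lower beside Chad. With stricter class limits Ogn (-2.07) was lower as well. The medians were -0.04 over the 8 and -0.05 over all genes. Between C1qb-high cells and the rest 7 of the 8 were lower by 2, against 14.7% of all genes, with Epyc the exception at -0.96, and 0 were higher, against 13.3% of all genes. As medians 4 of the 8 stayed lower by 2 (Dcn, Bgn, Omd and Ogn), with Lum at -0.78, Chad at -0.59 and Fmod at -0.04. With class limits of 100, 100 and 50 CPM, which count cell 22 as C1qb-high, Chad was at -0.19. Between Ibsp-high and Otos-high cells, Bgn (3.63) was higher by 2, against 9.94% of genes, and Ogn (-5.74) and Fmod (-3.42) were lower, against 8.45% of genes lower. Without the 12 cells with the fewest reads Lum (-2.98) and Epyc (-2.32) were lower by 2 too.

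**Figure D5:**
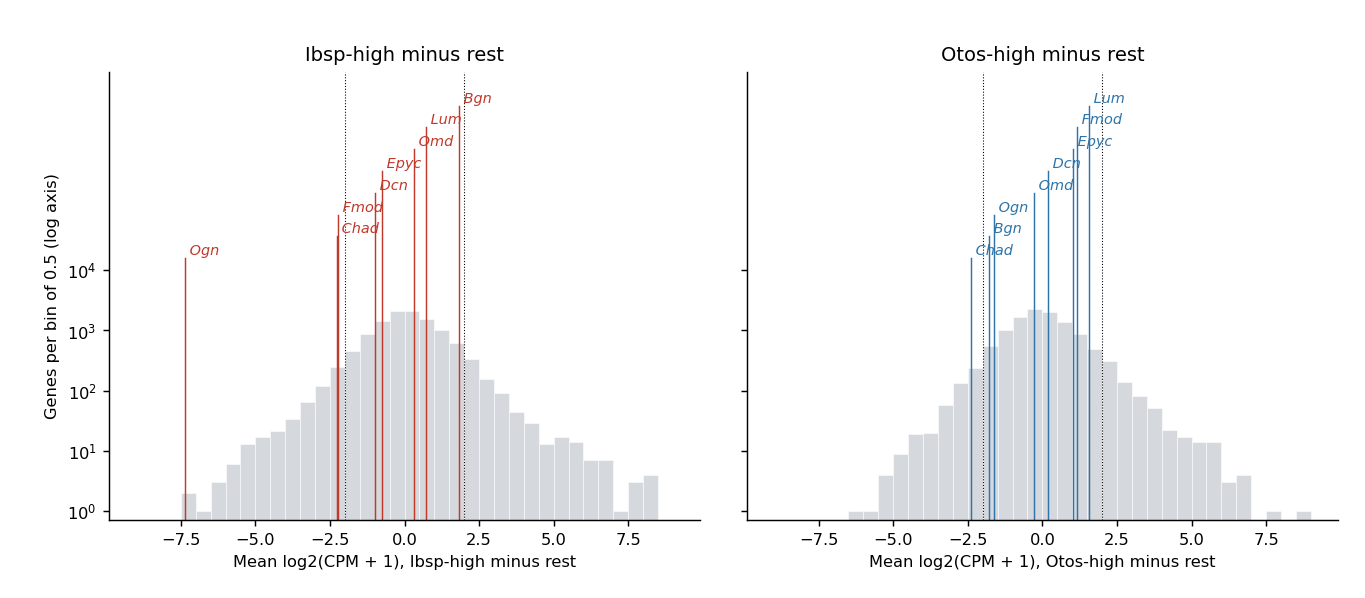
Difference in mean log2(CPM + 1) from the rest for the 8 tested members (vertical lines with names, line height only for legibility) on the histogram of all 11444 genes in bins of 0.5, for Ibsp-high cells (left) and Otos-high cells (right), with dotted lines at 2 log2 units. Ogn lies at the lower end of the left histogram, where the other tested members lie between -2.25 and 1.83. In the right histogram the tested members lie between -2.38 (Chad) and 1.55 (Lum).

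Genes that serve the proteoglycans were read from lists. Over all 11444 genes, 6.3% were higher by 2 and 4.58% lower in Ibsp-high cells than in the rest. For Otos-high cells these shares were 5.74% and 4.2%. The lists, here and in the paragraphs that follow, had 3 to 17 tested genes, too few to set a count of 0 or 1 apart from these shares. No list was tested as a set. Of 17 tested genes for the linkage region and for chondroitin and dermatan sulfate, 3 were higher and 1 lower by 2 in Ibsp-high cells than in the rest, and 0 higher and 1 lower in Otos-high cells. Chst11, which sulfates chondroitin, differed by 2.68 in Ibsp-high cells and was on in 4 of 12 of them, against 3 of 21 in the rest. Dse, the epimerase that turns chondroitin into dermatan sulfate, differed by -2.67 in Ibsp-high cells and -2.08 in Otos-high cells and was on in 0 of 12 and 0 of 9 cells, against 3 of 4 C1qb-high cells and 8 of 21 cells of the rest. Chst13 and Chsy1 were the other 2 higher in Ibsp-high cells, by 2.77 and 2.53. Chst13 was at most 0.320 CPM outside the Ibsp-high class. It entered the test only through the cells where it is high, so its place in the count carries no weight.

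Of 5 tested keratan sulfate genes, 1 was higher and 1 lower in Ibsp-high cells. B3gnt7, which extends the keratan chain, was on in 7 of 12 Ibsp-high cells, 0 of 9 Otos-high cells, 1 of 4 C1qb-high cells and 0 of 21 cells of the rest, and differed by 4.68 between Ibsp-high cells and the rest, while B4galt4 differed by -2.83. Among 9 genes of sulfate and sugar supply, 3 were higher and 0 lower in Ibsp-high cells, and 3 higher and 1 lower in Otos-high cells. Slc35b2, which carries the sulfate donor into the Golgi, was on in 11 of 12 Ibsp-high, 8 of 9 Otos-high and 12 of 21 remaining cells. Papss2 and Papss1, which make the donor, differed by 2.73 and 2.58 in Ibsp-high cells, and Slc35b3 by -2.73 in Otos-high cells.

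Of 10 tested collagen genes, 4 were higher and 3 lower in Ibsp-high cells than in the rest, and 0 higher and 3 lower in Otos-high cells. Col1a1 differed by 5.23 and Col3a1 by -5.84 in Ibsp-high cells, with Col3a1 on in 2 of 12 of them against 18 of 21 cells of the rest, and Col6a1 and Col5a1 by -4.06 and -2.57 in Otos-high cells. Among 4 tested genes of propeptide cleavage and crosslinking, 3 were higher in Ibsp-high cells, including Bmp1 (3.12), a proteinase that cleaves procollagen and the propeptides of biglycan and osteoglycin. Lox, which crosslinks collagen, differed by -6.31 in Otos-high cells and was on in 0 of 9 of them, against 16 of 21 cells of the rest. Of 10 tested ligand and receptor genes, 2 were higher and 1 lower in Ibsp-high cells, and 0 higher and 4 lower in Otos-high cells, with Egfr, a receptor bound by decorin, at -3.13 and -2.60. Large proteoglycans were scarce, with 3 of 8 genes tested. None of these was past 2 in Ibsp-high cells, and Bcan was higher by 3.23 in Otos-high cells. Of the other 8 family genes 3 were tested, and Ecm2 was lower by 2 in both classes (-4.26 and -2.87) while Chadl was higher in Otos-high cells (2.12).

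Relations between members were read as Spearman's rho. Over all 46 cells and the 21 pairs of the 7 members on in at least 5 cells, rho ran from -0.09 (Bgn with Lum) to 0.44 (Dcn with Lum), with a median of 0.20, while the middle 95% of all gene pairs ran from -0.30 to 0.32 around a median of 0.01. Above that middle range were 6 of the 21 pairs, with Dcn with Bgn (0.40), Omd with Ogn (0.39), Fmod with Ogn (0.38), Bgn with Omd (0.36) and Dcn with Ogn (0.35) after Dcn with Lum. Within classes the highest pair was another, Dcn with Bgn (0.67) in Ibsp-high cells and Omd with Ogn in Otos-high cells and in the rest. Omd and Ogn had a rho of 0.92 over the 21 cells of the rest, where the next pair, Fmod with Ogn, had 0.54, and of 0.62 over the 9 Otos-high cells, but of -0.41 over the 12 Ibsp-high cells, in which Ogn was off throughout. Bgn and Lum had -0.83 in Otos-high cells and -0.32 in the rest. The cells share class and library as sources of such relations, and no test was made. Values within classes have no background of all gene pairs beside them, and rho spreads more widely over so few cells. Genes outside the family whose levels were most like Ogn, among 6071 candidates, were Col8a1 (rho 0.76), Il11ra1 (0.75) and Loxl1 (0.72). For Bgn they were Lox (0.63), Ildr2 (0.62) and Tpm1 (0.62), for Dcn Pdgfra (0.58), Col11a1 (0.55) and Tmem59 (0.54), for Omd Myl9 (0.61), Myl12a (0.55) and Tpm1 (0.55), and for Lum Impdh1 (0.65), Srsf9 (0.60) and Dedd2 (0.57). Those of Chad were Enpp1 (0.63), Uaca (0.54) and Mfap4 (0.52), and those of Fmod Srr (0.54), Ndrg2 (0.54) and Tsr1 (0.52).

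The cells were also split by Dio2 itself, at 10 CPM. Of the 23 cells at or above it, 18 had Dcn on, 18 Bgn, 0 Aspn, 11 Lum, 8 Fmod, 1 Prelp, 17 Omd, 1 Epyc, 13 Ogn and 8 Chad. Of the 23 cells below it, 18 had Dcn on, 13 Bgn, 2 Aspn, 11 Lum, 4 Fmod, 3 Prelp, 11 Omd, 3 Epyc, 13 Ogn and 3 Chad. No test was made. The counts were equal for Dcn, Lum and Ogn, larger above the limit for Bgn, Fmod, Omd and Chad, and larger below it for Aspn, Prelp and Epyc. All 4 C1qb-high cells, with no member on, were among the 23 cells below it (Dio2 at 0.465, 0.194, 0.404 and 0.432 CPM). The 2 sets thus differ in class make-up, and equal counts do not mean equal shares among cells of like class. Counts over all genes were not made for this split.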

How the data were processed

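Single-cell libraries were made with a full-length cDNA kit and a DNA library kit, per the labels' protocols, and bcl2fastq 2 and STAR 2.7.3a with builds GRCm38 and mm10 are named in the submitters' processing notes. Counter, annotation and strand setting: not given in the sources used here, so overlapping genes on opposite strands may share reads. The authors deposited CPM for 29871 genes, which sum to 86.4% to 93.5% of 1000000 per cell. Each value was a whole number of reads (100% of values above 0, tolerance 0.01) once divided by the smallest step of its cell, which gave the reads per cell. No count test was run on these reads, because the 46 cells are 1 sample. Without molecular identifiers, reads are not independent molecules.

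Differences are of mean log2(CPM + 1), which understates changes of low genes, over 11444 genes at 1 CPM or more in at least 5 cells, without Ibsp, Otos and C1qb. All members are named, with up to 4 genes of each list and the 3 genes of highest Spearman rho per member. Of 147 list entries, 145 matched by symbol and 2 by an older symbol. Members, lists and classes were chosen with earlier results of these data known. No doublet caller was run on hand-picked cells. The difference step was tested on simulated data. These had a common mean profile with continuous scatter and no on and off cells like those of the members. The test thus covers the calculation and not the spread of these genes. Python 3.11.15, numpy 2.4.6, pandas 2.3.3 and scipy 1.17.1 were used. Alternatives were other limits, scalings, pseudocounts, class limits and thinned reads. RefSeq promoters were at hand for 8 members, not for Dcn and Lum.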

Additional observations from a re-analysis of the deposited data

How the results depend on the processing

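No paired analysis was possible because all cells are in 1 group with no test. Differences of the 8 tested members were recomputed 224 times. Those at 2 log2 units or more kept their sign, 11 fell under that limit and 12 smaller ones passed it. The one move past 1 pooled SD was that of Fmod between Otos-high cells and the rest, 5.63 as a difference of medians. The Otos-high median of Fmod was the value of a single cell, cell 27 at 88.1 CPM, against a median of 0.80 CPM in the rest. Ogn ranged from -8.16 to -5.86 between Ibsp-high cells and the rest. A limit of 1000 CPM left 23 cells on for Dcn, 7 for Bgn, 0 for Aspn, 10 for Lum, 1 for Fmod, 1 for Prelp, 9 for Omd, 1 for Epyc, 13 for Ogn and 4 for Chad. A limit of 1% of the mean gave 7 cells for Epyc. Without cells 22 and 42, left out after seeing the data as those nearest under the C1qb and Ibsp limits, Aspn was on in 1 cell. A pseudocount of 10, which by construction shrinks log differences of low genes, changed the number of genes past 2 log2 units in every comparison. Counts higher and lower were then 158 and 144 for Ibsp-high minus rest, 142 and 98 for Otos-high minus rest, 569 and 569 for C1qb-high minus rest, and 297 and 336 for Ibsp-high minus Otos-high. Thinning to 3500000 reads left 42 cells, and no member's share of cells moved by more than 1.5 times. The number of combinations stayed within 1.5 times of 30 under the other limits, and the summed shares moved by less than 1 SD.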

Other observations

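Among the 12 Ibsp-high cells, Bgn went with Col1a1, the main collagen gene of bone. The 8 cells with Col1a1 at 1054 CPM or more had Bgn at 492 to 2021 CPM, with a median of 1004 CPM. The 4 cells with Col1a1 under 100 CPM (cells 1, 3, 10 and 12) had Bgn at 160, 156, 220 and 29.8 CPM, so the sets did not overlap. Dcn ran from 359 to 3670 CPM in the 8 cells and from 7.73 to 464 CPM in the 4, and these sets overlapped. Omd showed no such order, with a median of 232 CPM in the 8 cells and 1145 CPM in the 4. In the rest, 4 cells had Col1a1 at 100 CPM or more, with Bgn at 268 to 4398 CPM, against 1.02 to 3046 CPM in the other 17, and no Otos-high cell had Col1a1 on. The split by Col1a1 was made after its values were seen, in cells of 1 sample, and no test was made. How many of all genes are likewise apart between these 8 and 4 cells was not counted, so the separation of Bgn has no background.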
